A study of Mus musculus with 9 samples.

Results

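Phosphate handling and mineralization were followed through 7 genes of the 55367 in the deposited table of whole-tumor RNA-Seq: Alpl, Phospho1, Smpd3, Enpp1, Slc20a1, Slc20a2 and Xpr1. They were selected by name with the p53-driven against Myc-knockin comparison of these same tumors already known, so their differences between the genotypes are given as a description without a test. The tumors were osteosarcomas (OS) that arose in genetically engineered mouse models (GEMMs). The 4 p53-driven tumors came from mice labeled Col2.3-Cre/TrpP53fl/+, and the 5 Myc-knockin tumors from mice whose label adds a Cre-dependent Lox-Stop-Lox c-MycT58A allele to p53fl/+. Both groups thus carried a floxed Trp53 allele and a Cre recombinase, which in these models is driven by the osteoblast promoter Col2.3. The labels give no age or treatment. Because whole tumors were sequenced, fewer cells of a type and less RNA per cell cannot be told apart.

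Bone mineral forms when phosphate and calcium precipitate within and around matrix vesicles budded from osteoblasts. Alpl, the tissue-nonspecific alkaline phosphatase, hydrolyzes extracellular pyrophosphate, a mineralization inhibitor, and releases phosphate. Enpp1 acts in the opposite direction by making pyrophosphate from ATP. Inside the vesicle, Smpd3, a neutral sphingomyelinase, splits sphingomyelin into ceramide and phosphocholine, and Phospho1 releases phosphate from phosphocholine and phosphoethanolamine. Slc20a1 and Slc20a2 are sodium-coupled phosphate importers of the plasma membrane, and Xpr1 is the phosphate exporter of animal cells. In mice and humans, loss of Alpl leaves bone undermineralized, and loss of Enpp1 causes mineral to form in arteries and joints.

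Positions are in GRCm38 (mm10) with GENCODE M21 gene models. Alpl (ENSMUSG00000028766) lies on the minus strand of chromosome 4 from 137741733 to 137796384, Phospho1 (ENSMUSG00000050860) on the plus strand of chromosome 11 from 95824499 to 95832140, and Smpd3 (ENSMUSG00000031906) on the minus strand of chromosome 8 from 106252548 to 106337988. Enpp1 (ENSMUSG00000037370) lies on the minus strand of chromosome 10 from 24637914 to 24712159. Slc20a1 (ENSMUSG00000027397) is on the plus strand of chromosome 2 from 129198764 to 129211616, and Slc20a2 (ENSMUSG00000037656) on the plus strand of chromosome 8 from 22476788 to 22569612. Xpr1 (ENSMUSG00000026469) is on the minus strand of chromosome 1 from 155275701 to 155417415. The merged exons of Xpr1 span 17.88 kb and those of Phospho1 2.029 kb, so the genes differ in the number of reads that a transcript can give. Phospho1 shares 89.6% of its exon bases with Zfp652 on the same strand and 84.2% with Abi3 on the opposite strand. How reads over shared exons were assigned is not given in the sources used here, so the level of Phospho1 is uncertain. The other members shared at most 8.10% of their exon bases with any single gene.

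RefSeq promoter windows (GRCm38.p6) matched 5 of the 7 members, with 2 start sites each for Alpl and Slc20a1 and 1 each for Phospho1, Enpp1 and Xpr1. Of these windows, 4 are shown because their genes mark the ends of the pattern below: Slc20a1 had a higher mean in the Myc-knockin tumors, Xpr1 a lower one without overlap of the groups, and Alpl and Phospho1 varied together from tumor to tumor. Each sequence holds the 250 bases before the start site, 5′ to 3′ on the strand of the gene. Capitals mark matches on either strand to CACGTG, the E-box that MYC with MAX is known to bind, or to the osteoblast factor RUNX2's letters TGTGGT or TGCGGT. None of these motifs overlap in the windows.
Slc20a1, chr2:129198523-129198772, plus strand: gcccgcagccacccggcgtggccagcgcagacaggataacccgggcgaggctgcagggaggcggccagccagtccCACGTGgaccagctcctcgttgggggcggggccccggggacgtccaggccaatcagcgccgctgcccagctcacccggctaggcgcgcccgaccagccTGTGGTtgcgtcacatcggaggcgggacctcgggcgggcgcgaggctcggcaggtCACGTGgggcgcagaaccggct
Xpr1, chr1:155417445-155417694, minus strand: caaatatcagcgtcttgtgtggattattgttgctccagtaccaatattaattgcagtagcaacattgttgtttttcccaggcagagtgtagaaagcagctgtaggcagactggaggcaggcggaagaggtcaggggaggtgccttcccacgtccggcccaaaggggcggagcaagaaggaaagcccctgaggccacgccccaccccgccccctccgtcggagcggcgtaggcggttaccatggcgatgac
Phospho1, chr11:95824250-95824499, plus strand: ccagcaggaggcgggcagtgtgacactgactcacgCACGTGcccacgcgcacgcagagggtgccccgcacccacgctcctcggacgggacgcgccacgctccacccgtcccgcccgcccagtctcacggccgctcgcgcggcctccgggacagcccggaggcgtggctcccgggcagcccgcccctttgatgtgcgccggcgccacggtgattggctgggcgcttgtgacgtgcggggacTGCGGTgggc
Alpl, chr4:137796385-137796634, minus strand: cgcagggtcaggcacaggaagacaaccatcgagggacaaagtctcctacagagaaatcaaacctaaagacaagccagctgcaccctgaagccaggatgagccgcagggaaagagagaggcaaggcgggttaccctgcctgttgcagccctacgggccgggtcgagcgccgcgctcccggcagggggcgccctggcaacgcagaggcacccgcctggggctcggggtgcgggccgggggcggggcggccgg

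The Slc20a1 window held 2 matches to CACGTG, starting at positions -175 and -22 relative to the start site, and 1 match to TGTGGT at -77. Phospho1 held 1 CACGTG at -215 and 1 TGCGGT at -10. Among all 32851 windows of the same length, CACGTG occurred in 6.02%, and 0.429% held at least 2 matches. TGTGGT occurred in 14.0% of windows and TGCGGT in 5.10%. These shares were not matched for GC content, which was 75.2% in the Slc20a1 window shown and 75.6% in that of Phospho1. It was between 50.8% and 68.4% in the other windows of the members. Enpp1 held 1 match to TGTGGT, on the opposite strand at -144. The Xpr1 window, both Alpl windows and the second Slc20a1 window held none of these letters, which says nothing of the factors elsewhere. The matches are a description of sequence, since binding was not measured.

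Total counts per library ranged from 2716322 to 17073285. In F187, M351, M408 and M9, between 23.2% and 81.0% of counts fell on 12 satellite-repeat genes, against at most 0.0242% in the other 5 libraries, and in M624 and M664 the small nuclear RNA Rn7sk was at 5.33 and 9.32 CPM (counts relative to library size, here outside satellite genes), against at least 8858 in the other 7. From here on CPM are TMM-normalized, a scaling that sets aside the most differing genes, and a floor of 3 counts corresponded to between 0.114 and 2.39 CPM. Every member had at least 17 counts in every tumor and passed the filter on low counts. Reads expected from genomic background, estimated from chemosensory receptor genes, came to at most 24.7% of a member's counts (Xpr1 in M9). Myc had between 43.5 and 67.1 CPM in the p53-driven group and between 144 and 1045 in the Myc-knockin group, and these did not overlap. Trp53, floxed in both groups, had 8.29 to 13.5 and 3.19 to 37.7 CPM, which overlapped, and the 4 counts of M9 were no more than the expected background. The osteoblast genes Runx2 and Sp7 were detected in all 9 tumors, between 9.18 and 371 CPM and between 25.9 and 244 CPM, and the osteocalcin gene Bglap had 0 counts in M408, which allows up to 0.549 CPM, and 1 count each in M351 and M624.

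Across all 15365 genes tested between the genotypes, 5.27% were called, that is, had an edgeR adjusted p under 0.05 and more than a 1.5-fold change. Of all genes, 2.26% were called higher and 3% lower with the Myc knockin, and in 13% the groups did not overlap. Log2 fold changes are given as Myc knockin over p53 driven throughout.

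The Alpl transcript was abundant in all p53-driven tumors and spread widely among the Myc-knockin tumors. It had 420 CPM in F187, 811 in F325, 671 in F331 and 1067 in F368. In the Myc-knockin tumors it had 464 CPM in M351, 101 in M408, 617 in M9, 72.2 in M624 and 828 in M664. The groups overlapped, since M351, M9 and M664 lay within the p53-driven range and only M408 and M624 lay below it. The mean was 742 ± 270 CPM (SD, n = 4) for the p53-driven and 417 ± 328 CPM (SD, n = 5) for the Myc-knockin group, a log2 fold change of -0.83 (SE 0.66). The highest Myc-knockin tumor had 11.5 times the Alpl level of the lowest, against 2.54 times among the p53-driven tumors.

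Phospho1, which frees phosphate inside the vesicle, had a similar pattern over the tumors. It had 10.7 CPM in F187, 36.9 in F325, 21.6 in F331 and 26.7 in F368, and 18.5 CPM in M351, 3.11 in M408, 15.1 in M9, 1.22 in M624 and 9.97 in M664. As for Alpl, M408 and M624 were the lowest of all tumors, and M351 and M9 stood within the p53-driven range. The means were 24.0 ± 10.9 CPM (SD, n = 4) and 9.58 ± 7.45 CPM (SD, n = 5), with a log2 fold change of -1.42 (SE 0.68). The value was -2.31 without the 4 libraries with satellite reads, and -1.92 when libraries were scaled by their size alone.

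Smpd3, the sphingomyelinase, had the widest range of the 7 genes. It had 104 CPM in F187, 122 in F325, 258 in F331 and 317 in F368, and 166 CPM in M351, 51.8 in M408, 132 in M9, 9.91 in M624 and 359 in M664. M664 held the highest level of all 9 tumors and M624 the lowest, so that the Myc-knockin tumors enclosed the whole p53-driven range. Their highest level was 36.3 times the lowest, against 3.04 times among the p53-driven tumors. The mean was 200 ± 104 CPM (SD, n = 4) for the p53-driven and 144 ± 135 CPM (SD, n = 5) for the Myc-knockin group, a log2 fold change of -0.48 (SE 0.76). Leaving out M624 gave -0.11 and leaving out M664 gave -1.13.

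Enpp1, the pyrophosphate maker, split the p53-driven tumors. F187 and F331 had 130.0 and 130.2 CPM, whereas F325 and F368 had 31.2 and 36.2. The Myc-knockin tumors had 43.7 CPM in M351, 90.8 in M408, 55.0 in M9, 8.76 in M624 and 41.8 in M664. Of these, 4 fell between the 2 p53-driven pairs and M624 lay below all other tumors. The means were 81.9 ± 55.7 CPM (SD, n = 4) and 48.0 ± 29.5 CPM (SD, n = 5), and the log2 fold change was -0.77 (SE 0.61). It was -0.30 without M624 and M664 and -1.37 without the libraries with satellite reads.

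Slc20a1 was the only member with a higher mean in the Myc-knockin tumors. Its level was nearly constant among the p53-driven tumors, with 34.8 CPM in F187, 26.1 in F325, 29.6 in F331 and 27.5 in F368. The Myc-knockin tumors had 30.8 CPM in M351, 112 in M408, 27.1 in M9, 58.2 in M624 and 62.3 in M664. Thus M408, M624 and M664 were above every p53-driven tumor, and M351 and M9, the libraries with the largest share of satellite reads, were within their range. The means were 29.5 ± 3.79 CPM (SD, n = 4) and 58.1 ± 34.1 CPM (SD, n = 5), a log2 fold change of 0.99 (SE 0.40). Background reads expected on Slc20a1 came to 12.4% of its counts in M351 and 20.2% in M9, and their subtraction left the fold change at 1.02. Leaving out M408 gave 0.65.

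Slc20a2, the other importer, differed least between the groups. It had 76.2 CPM in F187, 36.0 in F325, 71.2 in F331 and 40.6 in F368, and 22.8 CPM in M351, 49.1 in M408, 62.9 in M9, 50.3 in M624 and 41.2 in M664. Only M351 lay below the p53-driven range. The means were 56.0 ± 20.6 CPM (SD, n = 4) and 45.2 ± 14.8 CPM (SD, n = 5), with a log2 fold change of -0.31 (SE 0.34).

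Xpr1, the exporter, was the member whose groups did not overlap. It had 261 CPM in F187, 278 in F325, 513 in F331 and 232 in F368, and 65.9 CPM in M351, 71.4 in M408, 70.9 in M9, 40.3 in M624 and 46.2 in M664. Each Myc-knockin tumor was thus below each p53-driven tumor, and the Myc-knockin tumors lay close together. The means were 321 ± 130 CPM (SD, n = 4) and 58.9 ± 14.6 CPM (SD, n = 5), a 5.44-fold difference, with a log2 fold change of -2.45 (SE 0.34). It was -2.15 without M624 and M664 and -2.97 without the libraries with satellite reads, where only 3 p53-driven and 2 Myc-knockin tumors remain. Osteoclast and macrophage markers were also lower in the Myc-knockin tumors, as were the osteoblast markers given below. The summed level of 8 osteoclast markers was 2716 to 14151 CPM in the p53-driven and 124 to 2570 CPM in the Myc-knockin tumors, with 6 of 8 called lower, and that of 6 macrophage markers was 689 to 1251 and 119 to 366 CPM, with 3 of 6 called lower. Among the p53-driven tumors the osteoclast sum was highest in F331 and lowest in F368, where Xpr1 had 513 and 232 CPM. Among the Myc-knockin tumors the sum was highest in M664 and lowest in M9, where Xpr1 had 46.2 and 70.9 CPM. No marker of either list was at 0 counts in all tumors. The part of these cells in the Xpr1 difference was not tested.

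**Figure D1:**
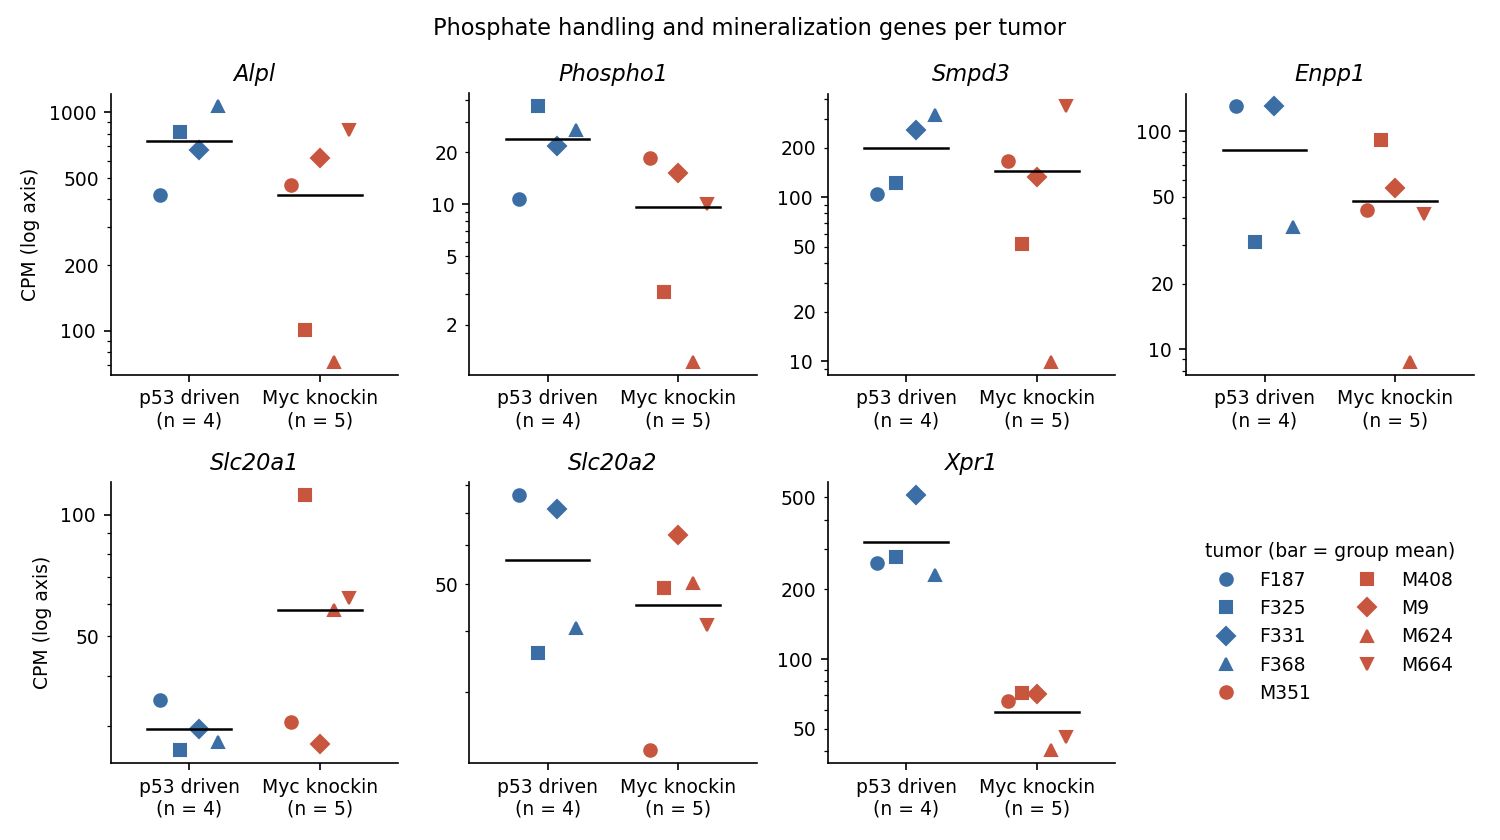
TMM-normalized CPM (log axis) of the 7 genes in 4 p53-driven and 5 Myc-knockin tumors, 1 symbol per tumor, with the group mean as a bar. The groups are apart for Xpr1, while for Alpl, Phospho1 and Smpd3 the Myc-knockin tumors M408 and M624 lie below the rest of their group.

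Of the 7 members, 1 was called (lower) and 1 had groups without overlap, Xpr1 in both cases, against 5.27% and 13% of all genes. Since this contrast chose the members, nothing is read from that count. The median log2 fold change of the members was -0.77, beside 0.14 for all genes tested. That latter median moved to 0.027 when libraries were scaled by size alone, and to 0.24 with upper-quartile scaling. In the plot of settings, 6 members had negative fold changes and Slc20a1 a positive one in all 17 alternatives run, including those that left out each tumor.

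**Figure D2:**
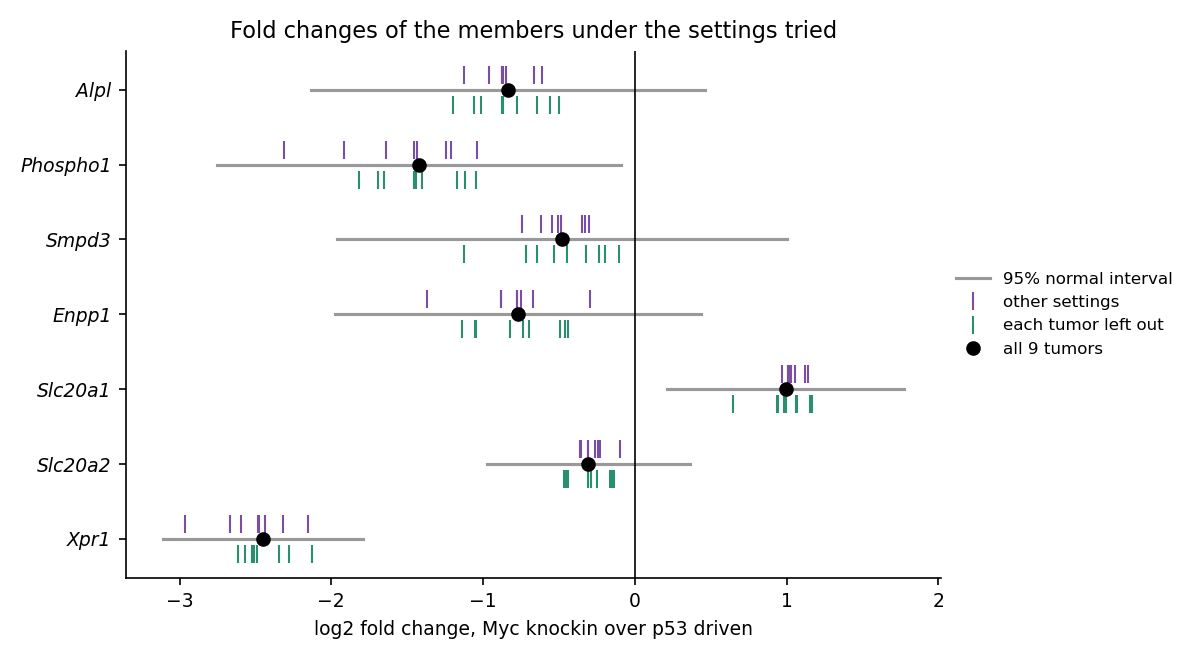
Log2 fold change of each member, Myc knockin over p53 driven (x axis), from all 9 tumors (black point, line for the 95% normal interval), with each tumor left out in turn (green) and under 8 other settings (purple). No marked value of a member crosses 0 under these settings, and since this contrast chose the members the lines give the error of each value and no test.

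The levels of the members were then set in order as CPM per kilobase of exon. In the p53-driven tumors the order of mean level was Alpl (184 ± 67.0 CPM per kilobase, SD, n = 4), Smpd3 (38.3 ± 19.8), Xpr1 (17.9 ± 7.25), Phospho1 (11.8 ± 5.39), Slc20a2 (9.01 ± 3.32), Enpp1 (7.98 ± 5.43) and Slc20a1 (5.28 ± 0.68). Only the first step, from Alpl to Smpd3, had ranges that did not overlap. In the Myc-knockin tumors Alpl (103 ± 81.3 CPM per kilobase, SD, n = 5) and Smpd3 (27.5 ± 25.9) again came first, followed by Slc20a1 (10.4 ± 6.10), Slc20a2 (7.28 ± 2.38), Phospho1 (4.72 ± 3.67), Enpp1 (4.68 ± 2.88) and Xpr1 (3.30 ± 0.82). There the ranges of all neighbors in the order overlapped. Xpr1 ranked 3 of 7 in the first order and 7 of 7 in the second, and Slc20a1 the reverse, which restates the genotype differences above and is no further finding.

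**Figure D3:**
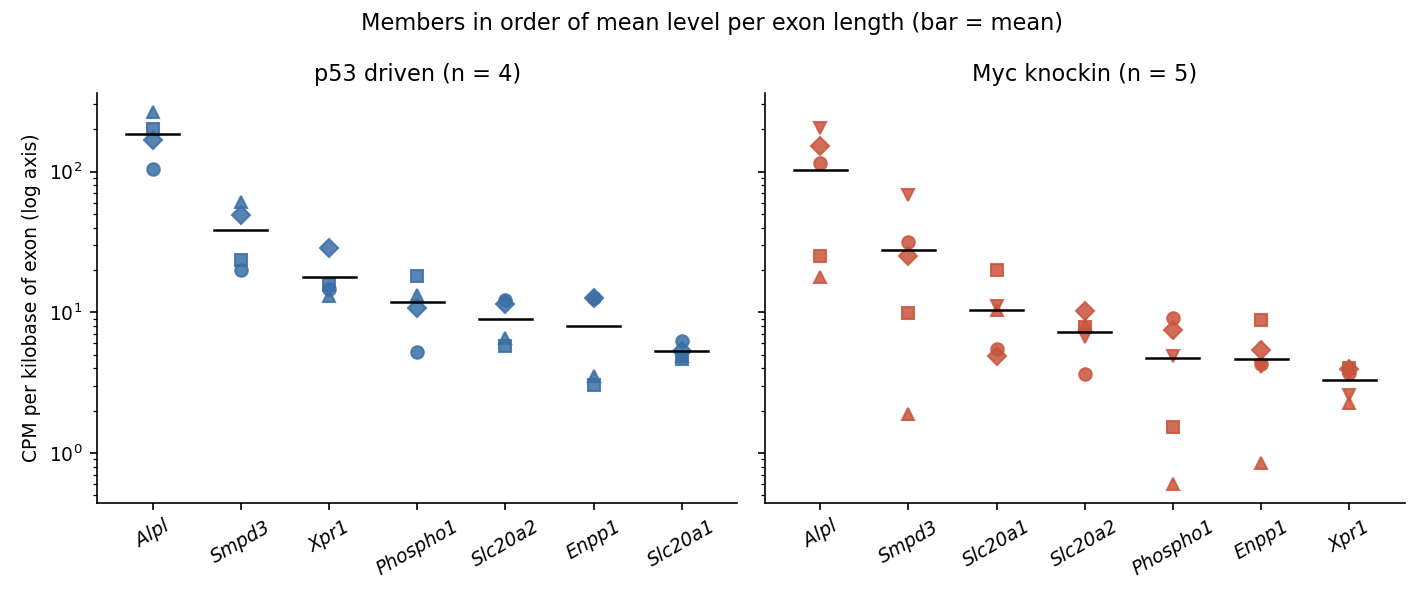
Level of each member per kilobase of exon (log axis) in the p53-driven (left) and Myc-knockin tumors (right), in order of the mean (bar), 1 symbol per tumor as in the plot of CPM per tumor. Alpl is highest on both sides, and the other places differ between the sides as the genotype differences of the members do.

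Differences of level between members within a tumor did not enter the choice of members and were tested, pooled over the genotypes. The pooled means of pairs with Slc20a1 or Xpr1 do depend on the genotype differences known at that choice. Alpl and Enpp1, which remove and make pyrophosphate, differed in every tumor. Alpl was above Enpp1 per kilobase in 9 of 9 tumors, by a mean log2 difference of 4.42 ± 1.52 (SD, n = 9, 2-sided exact permutation test by sign flips, p = 0.0039, adjusted p = 0.0078 over 4 pairs, the smallest p that 9 tumors allow). The ratio of Alpl to Enpp1 was 64.0 in F325 and 72.9 in F368, but 8.16 in F187 and 13.0 in F331. In the Myc-knockin tumors it was 26.4 in M351, 28.1 in M9, 18.9 in M624 and 49.2 in M664, and 2.82 in M408. M408, with low Alpl and the highest Enpp1 of its group, thus had the lowest ratio of all tumors. Phospho1 was below Smpd3 in 9 of 9 tumors, by -2.01 ± 0.91 (SD, n = 9, exact permutation test, p = 0.0039, adjusted p = 0.0078), with the limit that reads on exons shared with Zfp652 and Abi3 put on the level of Phospho1. If such reads were left out or divided between genes, Phospho1 would be too low, the direction of this difference. The test cannot tell that from a lower transcript level. Within each genotype alone the differences of both pairs kept their sign, but 4 or 5 tumors cannot reach a p below 0.125 or 0.0625.

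No difference between the importers was detectable with the genotypes pooled. Slc20a1 was above Slc20a2 per kilobase in 4 of 9 tumors, with a mean log2 difference of -0.088 ± 0.88 (SD, n = 9, exact permutation test, p = 0.758, adjusted p = 0.758) and single tumors between -1.10 and 1.34. By genotype, which the choice of members touches, Slc20a1 was below Slc20a2 in all 4 p53-driven tumors (mean -0.69) and above it in 4 of 5 Myc-knockin tumors (mean 0.40), with M9 as the exception at -1.05. The importers together were above Xpr1 in 6 of 9 tumors, by 1.17 ± 1.51 (SD, n = 9, exact permutation test, p = 0.0625, adjusted p = 0.0833). That difference was between -0.77 and 0.34 in the p53-driven tumors, and between 1.29 and 2.98 with the Myc knockin. The pooled mean thus depends on the genotype contrast known when the members were chosen, and nothing is read from its p. Without a correction for exon length, which is 17.88 kb for Xpr1, the mean difference over the tumors changed sign to -0.41.

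How the members varied among tumors of the same genotype was described by Pearson's r of their deviations from the genotype mean of log2 CPM, over 9 tumors. Alpl, Phospho1 and Smpd3 varied together, with r = 0.90 for Alpl and Phospho1, 0.90 for Alpl and Smpd3, and 0.81 for Phospho1 and Smpd3. Without M624 and M664 these values were 0.93, 0.80 and 0.70 over 7 tumors. Slc20a1 went the opposite way, with r = -0.61 to Alpl and -0.69 to Phospho1, and with -0.95 and -0.91 without M624 and M664. Over the 9 tumors Enpp1 was most like Xpr1 (r = 0.70), but without M624 and M664 it was most like Slc20a2 (r = 0.77, from 0.37), ahead of Xpr1 (r = 0.56). Its r with Alpl changed from 0.16 to -0.62 when M624 and M664 were left out. M624 had the lowest level of both genes. The points share a library, its depth and its mix of cells, and r carries no test here.

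**Figure D4:**
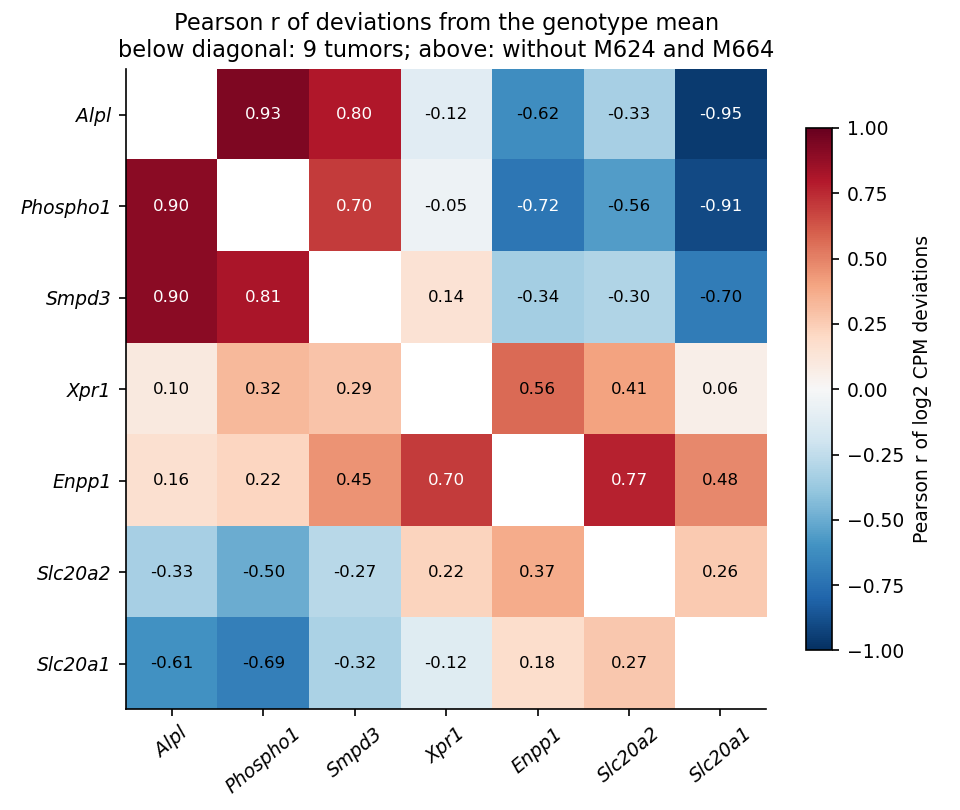
Pearson's r between members of deviations from the genotype mean of log2 CPM, over 9 tumors below the diagonal and over 7 tumors without M624 and M664 above it. Alpl, Phospho1 and Smpd3 form a positive block on both sides (0.70 to 0.93), and Slc20a1 is negative with all 3.

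Over the 9 tumors together, osteoblast markers moved with this block. The r of a member with the mean log2 CPM of 10 osteoblast markers, also taken as deviations, was 0.94 for Smpd3, 0.88 for Alpl, 0.85 for Phospho1, 0.60 for Enpp1, 0.40 for Xpr1, -0.13 for Slc20a2 and -0.42 for Slc20a1. These r were not computed without M624 and M664. Within the p53-driven tumors the likeness was not shared by all of the block. F325 had the lowest mean marker level there (8.84 as log2 of CPM plus 1), but the highest Phospho1 (36.9 CPM) and 811 CPM of Alpl. Smpd3 was lower in F187 and F325 than in F331 and F368, as the marker mean was. The summed osteoblast marker level was 61756 to 139818 CPM in the p53-driven tumors. Most of the sum came from the collagen genes Col1a1 and Col1a2, with 40517 and 18856 CPM in F187 and 2098 and 1164 CPM in M624. The sum was lowest in M624 (3351 CPM) and M408 (7513 CPM), the same tumors in which Alpl, Phospho1 and Smpd3 were lowest, and highest among the Myc-knockin tumors in M664 (39431 CPM). All 10 of these markers had negative log2 fold changes, with 2 called lower, Bglap and Bglap2, and none was at 0 counts in all tumors. The part of osteoblast content in the members' values was not tested.

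Among 9485 tested genes with a mean of at least 10 CPM, the genes most like each member over the 9 tumors were as follows. Alpl was closest to Iqsec2 (r = 0.996) and Gsg1l (r = 0.98), and Phospho1 to Lurap1l (r = 0.97) and Gask1b (r = 0.96). Smpd3 was closest to Fgfr3 (r = 0.99), a fibroblast growth factor receptor, and Itga10 (r = 0.98), a collagen-binding integrin. Enpp1 was closest to St3gal6 (r = 0.94) and Relch (r = 0.92), and Xpr1 to Ghr (r = 0.97), the growth hormone receptor, and Ahr (r = 0.96), the aryl hydrocarbon receptor. Slc20a1 was closest to Smim15 and Col4a3bp (both r = 0.96), the latter a ceramide carrier, and Slc20a2 to Prag1 (r = 0.95) and Zfp868 (r = 0.93). These genes were picked as the highest of 9485 values over 9 tumors, which by itself gives high r, and none was tested. Their r without M624 and M664 was not computed.

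The other genes of phosphate handling were taken from 8 lists of 76 genes, of which 63 could be tested. Between the genotypes, 6 of the 63 were called, 1 higher and 5 lower with the Myc knockin, which is 9.52% against 5.27% of all genes, and their median log2 fold change was -0.086 against 0.14. The counts depended on single tumors, as did those of all genes. They were 0 higher and 0 lower without F325, F331 or F368, where edgeR called 8, 6 and 5 of all genes and 13, 14 and 12 list genes had an unadjusted p under 0.05. They were 0 and 1 without F187 (1.59% of the tested list genes against 2.03% of all genes), 1 and 0 without M351 (1.61% against 2.44%), 1 and 1 without M624 (3.23% against 2.62%) or M664 (3.28% against 4.87%), and 3 and 4 without M9 (11.1% against 10.4%). Without both M624 and M664 they were 0 and 2 (3.12% against 4.61%), and without the 4 libraries with satellite reads 7 and 8 (23.4% against 27.9%). The share of list genes called was thus above that of all genes in some settings and below it in others.

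Genes that act on the phosphocholine route of Phospho1 and Smpd3 included 2 of the called genes. Pcyt1a, which commits phosphocholine to phosphatidylcholine synthesis, had 58.9 to 90.6 CPM in the p53-driven and 26.5 to 42.9 CPM in the Myc-knockin tumors, without overlap, and fell by 1.16 on the log2 scale (SE 0.24, edgeR adjusted p = 0.0294). Asah1, the lysosomal acid ceramidase, had 109 to 153 and 52.2 to 92.5 CPM and fell by 1.00 (SE 0.26, edgeR adjusted p = 0.0480). Of the 18 tested genes in this list the other 16 were not called. Sgms2, a sphingomyelin synthase, had 485 to 1271 CPM in the p53-driven and 7.47 to 773 CPM in the Myc-knockin tumors (log2 fold change -1.64, SE 0.85, edgeR adjusted p = 0.240), with its lowest value in M624. Acer2, a ceramidase of the Golgi, had a log2 fold change of 1.46 (SE 0.45, edgeR adjusted p = 0.0737), and Pcyt1b, the relative of Pcyt1a, one of 1.79 (SE 0.90, edgeR adjusted p = 0.226).

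Of 11 tested genes for extracellular ATP and pyrophosphate, 1 was called. Enpp5, a family relative of Enpp1, had 44.2 CPM in F187, 31.4 in F325 and 45.7 in F331 against 2.38 to 13.5 CPM with the Myc knockin, and fell by 2.46 on the log2 scale (SE 0.56, edgeR adjusted p = 0.0357), although F368 lay within the Myc-knockin range. Enpp6, a choline phosphodiesterase, had 101 to 162 and 0.572 to 70.1 CPM (log2 fold change -1.73, SE 0.81, edgeR adjusted p = 0.198). Enpp4 had a log2 fold change of -1.15 and the ATP channel Panx1 one of 0.85, with edgeR adjusted p = 0.104 and 0.270. Ank, which carries pyrophosphate or ATP out of the cell, had mean levels of 140 and 160 CPM (log2 fold change 0.20, SE 0.68). None of the 5 tested pyrophosphatases and phosphatases was called. The closest was the mitochondrial pyrophosphatase Ppa2, with 12.9 to 19.7 CPM in the p53-driven and 25.5 to 40.8 CPM in the Myc-knockin tumors (log2 fold change 0.99, SE 0.27, edgeR adjusted p = 0.0563). Lhpp, Prune1 and Ppa1 had log2 fold changes of 0.88, 0.60 and 0.41 with edgeR adjusted p = 0.328, 0.142 and 0.462.

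Inositol pyrophosphates bind the SPX domain of Xpr1 and stimulate phosphate export, and 10 genes of their metabolism were tested. Itpk1, an inositol phosphate kinase early in that route, was the called gene with a higher level in the Myc-knockin tumors. It had 6.32 CPM in F187, 4.28 in F325, 4.07 in F331 and 3.65 in F368, and 8.62 CPM in M351, 13.4 in M408, 12.7 in M9, 44.9 in M624 and 20.1 in M664. The groups did not overlap, and M624 and M664 were highest (log2 fold change 2.17, SE 0.50, edgeR adjusted p = 0.0376). Without M624 and M664 the value was 1.43 with an edgeR adjusted p of 0.0568. The inositol hexakisphosphate kinases Ip6k2 and Ip6k1 had log2 fold changes of 1.21 and 0.54 (edgeR adjusted p = 0.102 and 0.476), and Ippk one of 0.67 (edgeR adjusted p = 0.337).

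The hormonal phosphate axis, through which bone signals to the kidney, held 2 of the called genes among 8 tested, and its median log2 fold change was -0.91. Galnt3, which glycosylates the hormone FGF23 and protects it from cleavage, had 58.1 to 221 CPM in the p53-driven and 2.78 to 41.9 CPM in the Myc-knockin tumors and fell by 2.48 on the log2 scale (SE 0.62, edgeR adjusted p = 0.0453). Fam20c, the kinase of secreted phosphoproteins, had 36.7 to 99.0 and 13.2 to 33.5 CPM and fell by 1.45 (SE 0.37, edgeR adjusted p = 0.0468). The hormone gene Fgf23 itself had at most 11 counts in any tumor and was not tested. The vitamin D receptor gene Vdr had a log2 fold change of -1.49 (SE 0.51, edgeR adjusted p = 0.0949), and the osteocyte gene Dmp1 one of -1.64 (SE 0.99, edgeR adjusted p = 0.313), which is also among the osteoblast markers. Mepe had 0 counts in F187 and F368, which allows up to 1.18 and 0.365 CPM, and up to 31.5 CPM in M408, with an edgeR adjusted p of 0.171.

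The remaining lists held no called gene. Of the 4 matrix vesicle annexins, Anxa5 came closest, with 263 to 340.5 CPM in the p53-driven and 104 to 198 CPM in the Myc-knockin tumors (log2 fold change -1.08, SE 0.28, edgeR adjusted p = 0.0508). Anxa1, Anxa2 and Anxa6 had -0.49, -0.47 and -0.16 (edgeR adjusted p = 0.544, 0.451 and 0.861), and the value of Anxa6 changed sign with scaling by library size alone. The kidney and gut phosphate importers Slc34a1, Slc34a2 and Slc34a3 had at most 10 counts in any tumor and were not tested. The mitochondrial phosphate carrier Slc25a3 had a log2 fold change of 0.48, and the ATP-magnesium and phosphate carriers Slc25a24, Slc25a23 and Slc25a25 had -0.77, -0.22 and -0.17, with edgeR adjusted p between 0.226 and 0.790 for the 4 genes. Among the matrix mineralization inhibitors, Spp1, the osteopontin gene, had a log2 fold change of -0.90, Fetub one of 0.37 and Mgp one of -0.031, with edgeR adjusted p = 0.482, 0.806 and 0.982, and Mgp changed sign to 0.15 with upper-quartile scaling.

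**Figure D5:**
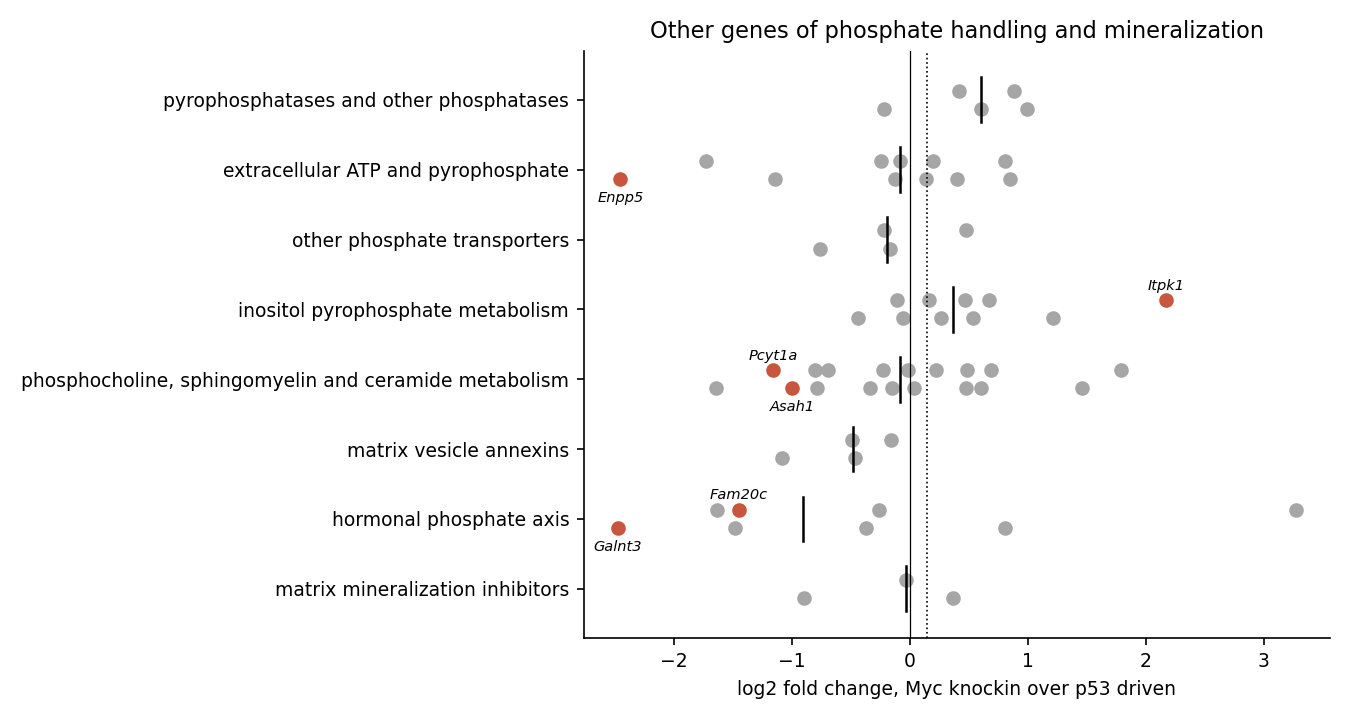
Log2 fold change, Myc knockin over p53 driven, of the 63 tested genes in 8 lists (rows). Each point is a gene, red where called and gray where not, the bar is the median of the list, and the dotted line is the median of all genes tested (0.14). Itpk1 is the called gene on the right, and 5 called genes lie on the left.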

How the data were processed

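The paper describes sequencing of whole-tumor RNA after oligo-dT enrichment with a stranded kit, and names no difference between tumors. Whether M624 and M664, which were low in Rn7sk, were prepared like the rest was not tested. The authors trimmed reads with Trim Galore, mapped them with STAR to mm10 and deposited raw featureCounts counts per gene for 9 tumors. The strand setting is not given in the sources used here. Columns were assigned to groups by their names, which letters and the study's supporting data tie to a genotype, and no column could be tied to a numbered sample. Counts were fitted in R 4.3.3 with edgeR 4.0.16 (TMM scaling, filterByExpr with a minimum count of 10, glmQLFit and glmQLFTest), and p values were adjusted by Benjamini-Hochberg over 15365 genes. Calls required an adjusted p below 0.05 with more than a 1.5-fold change. Levels are TMM-normalized CPM, log2 CPM used a prior count of 2, and levels per kilobase used merged GENCODE M21 exons with 0.1 added before log2. Pairs of members were compared by 2-sided exact permutation tests with scipy 1.17.1. Background per kilobase of exon was estimated from 1539 receptor genes. The fit was tested on simulated data. The p values measure the spread between these tumors, and floors cover counting error only.

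The members and lists were chosen with earlier results of these data known. Named are all members, list genes that were called, up to 4 tested genes with the largest absolute log2 fold change in each list, and the 2 genes most like each member. Ank, Fgf23 and the Slc34a genes were named in addition, after their values were seen. Alternatives were upper-quartile and library-size scaling, all genes with at least 1 count, DESeq2 1.42.0, each tumor left out, libraries M624 and M664 or the 4 with satellite reads left out, satellite genes removed and background subtracted. Likeness without M624 and M664 was added after seeing the data. Protein sequences were not used here.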

Additional observations from a re-analysis of the deposited data

Results flagged for a closer look

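Of 80 groups examined (40 genes in both genotypes, log2 CPM), 4 held a tumor far from the rest by Dixon's ratio of the gap to the range, which is the number expected where chance flags about 1 in 20 groups. None was a member, and all 4 were the lowest Myc-knockin tumor, M624. The ratios were 0.769 for Enpp6, 0.755 for Dmp1, 0.955 for Fam20c and 0.716 for Fetub. M624 also had the lowest level of Alpl, Phospho1, Smpd3, Enpp1 and Xpr1 among all tumors, and the lowest summed osteoblast marker level.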

How the results depend on the processing

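No paired analysis was possible because the columns carry no replicate numbers. In 119 member and setting combinations no member's fold change reversed, and 1 moved by more than the spread between tumors, Xpr1 at -2.97 without the 4 libraries with satellite reads. The counts of other pathway genes called, 1 higher and 5 lower from all tumors, changed between settings. They did not always go in the direction of the share of all genes called, which was 5.27%. They were 2 and 2 with upper-quartile scaling (6.32% of all genes), 0 and 1 with library size alone (0.885%), 0 and 2 with all genes of at least 1 count (1.04%), 3 and 7 with DESeq2 (11.7%), 1 and 3 with satellite genes removed (3.81%), 1 and 4 with background subtracted (7.87%), 0 and 2 without M624 and M664 (4.61%), and 7 and 8 without the 4 libraries with satellite reads (27.9%). With each tumor left out, the counts ranged from 0 to 3 higher and from 0 to 5 lower, and the share of all genes called from 0.0292% to 10.4%. Of the 6 called genes, Asah1 and Fam20c were called in 2 of 8 other settings and Enpp5 in 7 of 8, and each was called in 1 to 5 of 9 fits with a tumor left out.

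Some genes that were not called changed sign: Lhpp to -0.13 and Ip6k1 to -0.25 without M624 and M664, Anxa6 to 0.024 with library size alone and to 0.59 without the 4 libraries with satellite reads, and Mgp to 0.15 with upper-quartile scaling, 0.29 without M624 and M664 and 0.20 with background subtracted. With each tumor left out, Slc25a23 ranged from -0.42 to 0.070, Anxa6 from -0.55 to 0.16 and Mgp from -0.42 to 0.30.

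The log2 difference of Alpl over Enpp1 per kilobase was 5.15 without the 4 libraries with satellite reads, 4.73 within the p53-driven and 4.18 within the Myc-knockin tumors, and that of Phospho1 over Smpd3 was -2.01, -1.66 and -2.29. None of these passed, since so few tumors cannot. Slc20a1 over Slc20a2 was 0.40 within the Myc-knockin tumors and ranged from -0.27 to 0.039 with each tumor left out. The importers over Xpr1 were at -0.41 without length correction and -0.29 within the p53-driven tumors. The cause of these changes was not tested. Depth limits Phospho1 most, with 17 counts in M408 and 19 in M9.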

Other observations

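Among the pathway genes named above, Dmp1, Fam20c and Spp1 varied most like Enpp1, genes that were picked after their values were seen and are given without a test. Over 9 tumors, deviations of Enpp1 from the genotype mean had r = 0.90 with Dmp1, 0.87 with Fam20c and 0.87 with Spp1, but 0.61 with Mepe, which had 0 counts in F187. Ibsp, the bone sialoprotein gene, differed from them in the p53-driven tumors, with 892 CPM in F187, 1520 in F325, 3676 in F331 and 3946 in F368. The tumors F187 and F331, with the highest Enpp1, also had the highest Dmp1 (345 and 361 CPM) and Spp1 (3822 and 2209 CPM) of the p53-driven group, and F325 and F368, with low Enpp1, had 58.5 and 94.0 CPM of Dmp1 and 386 and 944 CPM of Spp1. Among the Myc-knockin tumors, M408 had the highest Enpp1 and Spp1 (2311 CPM), while Dmp1 was highest in M351 (140 CPM, against 95.6 in M408), and M624 the lowest Enpp1, Dmp1 (0.495 CPM) and Spp1 (207 CPM). In the p53-driven tumors Alpl ran opposite to this split: it was lower in F187 and F331 (420 and 671 CPM) than in F325 and F368 (811 and 1067 CPM).

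Other cell types were measured in the same libraries. The summed level of 8 chondrocyte markers was 606 to 4174 CPM in the p53-driven and 147 to 481 CPM in the Myc-knockin tumors, with 0 of 8 called. The single markers were split, 4 with a positive and 4 with a negative log2 fold change (median 0.39). The p53-driven sums came mostly from Col11a2 (573 to 1530 CPM) and, in F331, from Col2a1 (2566 CPM, against at most 7.90 in the other p53-driven tumors). Neutrophil markers summed to 4.59 to 16.7 and 3.47 to 145 CPM, endothelial markers to 328 to 462 and 81.9 to 418 CPM, and adipocyte markers to 74.5 to 401 and 9.33 to 147 CPM. Skeletal muscle markers summed to 11.1 to 4740 and 2.67 to 1793 CPM, and red cell markers to 3.55 to 12.9 and 5.58 to 783 CPM, with the highest red cell sums in M624 and M664. In these libraries, which were also low in Rn7sk, the globin gene Hba-a1 had 2684 and 8995 counts, against 0 in every other library. The red cell gene Alas2 was instead highest in M408 (26.7 CPM, against 8.69 in M624 and 19.7 in M664). The red cell sums thus follow globin counts by library and are not read as red cell content. None of the tested genes in these lists was called, and no list had a gene at 0 counts in every tumor.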
